A study of Homo sapiens with 4 samples.

Results

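The regions described here are the H3K27me3 peaks of chromosomes 17, 19 and 22, taken by position alone from both deposited peak lists of HaCaT cells. They number 1293 of the 13155 peaks of the AKBA list and 903 of the 8890 peaks of the DMSO list, which is 9.83% and 10.2% of each list. The labels give HaCaT as human immortalized keratinocytes. Cells had AKBA in the medium in one condition and DMSO in the other, for 12 hours in both. AKBA usually denotes an acetylated boswellic acid, a triterpene of frankincense resin, and no dose is given in the sources used here. DMSO, a common solvent, was the control. The peak lists hold no expression values against which the cell type could be checked. Each condition has 1 H3K27me3 library and 1 input DNA library, and only the H3K27me3 libraries have a peak list used here. As each condition is a single library, AKBA and DMSO values are set side by side without a test, and their differences were not replicated.

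H3K27me3, the trimethylated form of histone H3 lysine 27, marks repressed chromatin. Polycomb repressive complex 2 writes it, Polycomb repressive complex 1 binds it, and it lies over silent developmental genes, often in broad domains around unmethylated CpG islands. Chromosomes 17, 19 and 22 are known for many closely spaced genes. Chromosome 19 in addition carries many of the human KRAB zinc-finger genes in tandem clusters. In other human cells these clusters are known for another silencing mark, trimethylated lysine 9 of histone H3, bound with the KAP1 corepressor.

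A peak list holds what passed the authors' caller, so H3K27me3 too weak for the caller is not seen, and the number of reads behind either list is unknown. No AKBA peak was narrower than 214 bp and no DMSO peak narrower than 160 bp. Neighbouring AKBA peaks were nowhere closer than 857 bp, and neighbouring DMSO peaks nowhere closer than 641 bp. Both limits touch every width and spacing below. Positions are hg19, 1-based. Peaks were not assigned to genes: where a window of whole megabases is said to hold a gene, the placement is general knowledge of hg19, not a file used here. All intervals are exact 95% Clopper-Pearson intervals, or are derived from them. They cover counting error only, and they treat peaks as independent although neighbouring peaks often belong to 1 marked domain.

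All 3 chromosomes were more densely marked than the pooled other 20 chromosomes, and the order among them was 17, then 22, then 19 in both lists. Chromosome 17 had 8.63 AKBA and 6.11 DMSO peaks per Mb of span, the distance from the first to the last peak of either list. On chromosome 22 these densities were 7.48 AKBA and 4.72 DMSO peaks per Mb, and on chromosome 19 they were 5.77 and 4.202. The other 20 chromosomes together had 4.31 AKBA and 2.90 DMSO peaks per Mb. Relative to them, chromosome 17 was 2.002 times as dense in the AKBA list (interval 1.85 to 2.16) and 2.11 times in the DMSO list (1.92 to 2.31). Chromosome 22 was 1.74 times as dense in the AKBA list (1.53 to 1.97) and 1.63 times in the DMSO list (1.38 to 1.90). Chromosome 19 was 1.34 times as dense in the AKBA list (1.20 to 1.49) and 1.45 times in the DMSO list (1.27 to 1.64). The intervals of chromosomes 19 and 22 overlap in the DMSO list and those of chromosomes 17 and 22 in the AKBA list, so their order there is within counting error. With peaks of at least 1 kb alone, the DMSO values were 1.19 on chromosome 19 (0.880 to 1.57) and 1.40 on chromosome 22 (0.975 to 1.96). Both intervals include 1, so with these fewer peaks the difference from the other chromosomes is within counting error. In rank among the 23 chromosomes with peaks, chromosome 17 was number 2, chromosome 22 number 4 and chromosome 19 number 7 in both lists.

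The density of peaks did not follow the density of genes on chromosome 19. In the RefSeq gene table of GRCh38.p14, counted per chromosome and divided by the hg19 span, chromosome 19 held 24.7 protein-coding genes per Mb. Chromosome 17 held 14.4 and chromosome 22 held 13.23, so the 3 were the most gene-dense of the 23. Per 100 protein-coding genes, chromosome 19 had 23.4 AKBA and 17.02 DMSO peaks, the number 22 rank of 23 in both lists, with chromosome X below it. Chromosome 17 had 59.8 AKBA and 42.3 DMSO peaks per 100 genes, and chromosome 22 had 56.5 and 35.7. These lay below the 70.2 AKBA and 47.3 DMSO peaks per 100 genes of the other 20 chromosomes pooled. In rank, chromosome 17 was number 13 of 23 in both lists, and chromosome 22 number 15 with AKBA and 17 with DMSO. Of the 1451 protein-coding genes on chromosome 19, 250 carry a ZNF number as their symbol, which is 17.2%, against 11 genes on chromosome 17 and 4 on chromosome 22. Leaving ZNF genes out of every chromosome gave 28.2 AKBA and 20.6 DMSO peaks per 100 genes on chromosome 19, and its rank of 22 did not change.

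**Figure D1:**
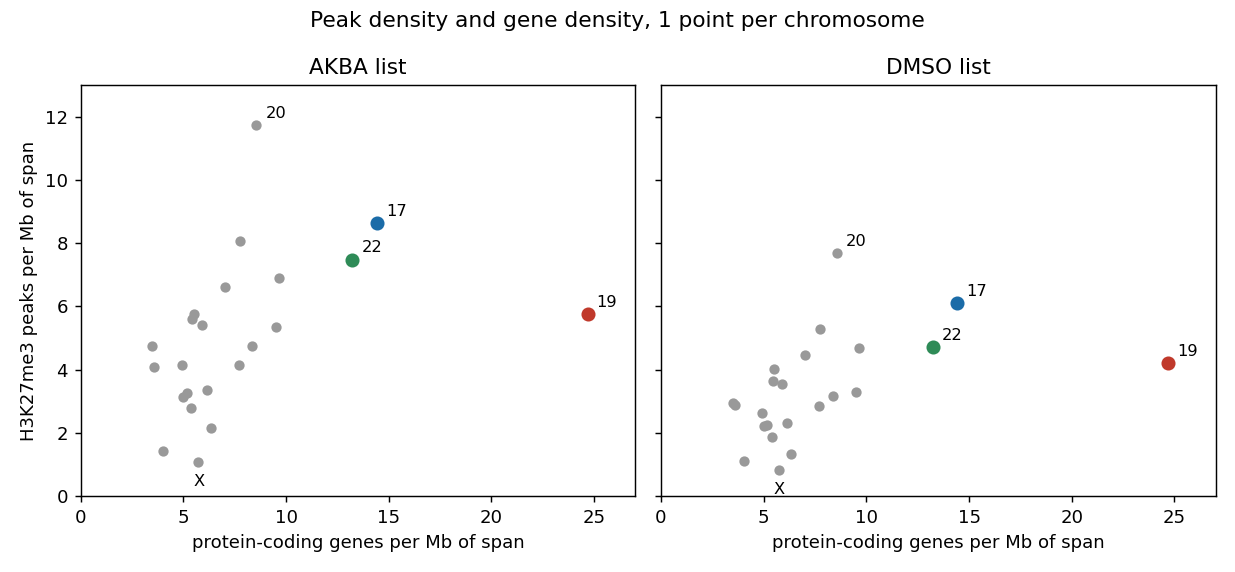
Peaks per Mb of span (vertical axis) against protein-coding genes per Mb of span (horizontal axis) for the AKBA list (left) and the DMSO list (right), with 1 point per chromosome. Chromosome 19 stands far to the right at 24.7 genes per Mb with 5.77 AKBA and 4.202 DMSO peaks per Mb, below chromosomes 17 and 22.

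In covered sequence per Mb chromosome 17 stood further above chromosomes 19 and 22 than in peak number per Mb, in both lists. AKBA peaks covered 855.9 kb of chromosome 17, 374.5 kb of chromosome 19 and 244.3 kb of chromosome 22. DMSO peaks covered 469.3, 182.4 and 120.1 kb of the same chromosomes. Per Mb of span this came to 10.6 kb with AKBA and 5.79 kb with DMSO on chromosome 17, to 6.37 and 3.10 kb on chromosome 19, and to 7.17 and 3.52 kb on chromosome 22. Chromosome 17 thus had over 1% of its span (1.06%) inside AKBA peaks, against 0.579% inside DMSO peaks.

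Each of the 3 chromosomes had more peaks and more covered bases in the AKBA list. The AKBA list held 1.41 times the DMSO peak number on chromosome 17 (699 against 495, interval 1.26 to 1.59), 1.37 times on chromosome 19 (339 against 247, 1.16 to 1.62) and 1.58 times on chromosome 22 (255 against 161, 1.30 to 1.94). These 3 intervals overlap, and each includes the 1.49 of the other 20 chromosomes. The ratio of covered bases was 1.82 on chromosome 17, 2.05 on chromosome 19 and 2.03 on chromosome 22, against 1.94 elsewhere. With the same number of top-scoring peaks from each list, the 3 chromosomes together gave 0.976 times as many AKBA as DMSO peaks (interval 0.888 to 1.07). The ratio of peak numbers was then 1.01 on chromosome 17 (0.894 to 1.15), 0.903 on chromosome 19 (0.750 to 1.09) and 0.969 on chromosome 22 (0.772 to 1.22). It turned below 1 on chromosomes 19 and 22, and every interval includes 1. Equal list lengths fix the ratio over all chromosomes at 1, so values near 1 here cannot show whether the lists differ in peak number. The ratio of bases was then 1.55.

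The most covered megabases of chromosome 17 lay on its long arm. Beyond the peak-free stretch around the centromere it had 9.62 AKBA and 7.16 DMSO peaks per Mb, and before it 7.65 and 4.54. The most covered window of 1 Mb, from 77 to 78 Mb, held 72 AKBA peaks over 99.98 kb and 55 DMSO peaks over 42.6 kb. The best-scoring AKBA peak of the chromosome lay in it, from 77771844 to 77774108, a peak of 2265 bp with a score of 8.67 in the authors' list, on a scale that is not stated, that shared 96.8% of its length with a DMSO peak. Of the peaks centred in the window, 36 of 72 AKBA and 42 of 55 DMSO peaks overlapped the other list, against 32.2% of AKBA and 54.5% of DMSO peaks over all chromosomes. From 75 to 78 Mb lay 15.3% of all AKBA and 18.6% of all DMSO peaks of the chromosome, a stretch named after its values were seen.

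The window from 46 to 47 Mb was second in covered bases, with 67.8 kb in 31 AKBA peaks and 40.3 kb in 33 DMSO peaks. It holds the HOXB genes, homeobox factors that set position along the body axis. The window from 75 to 76 Mb followed, with 55.9 kb in 33 AKBA peaks and 34.1 kb in 36 DMSO peaks. Both windows had fewer peaks and more covered bases in the AKBA list. The widest domain of the chromosome lay in the HOXB megabase from 46691456 to 46725253, where a domain is a run of peaks, whichever list they come from, with no gap over 5 kb. In it 28.2 kb lay in 6 AKBA peaks and 14.3 kb in 10 DMSO peaks, of a span of 33.8 kb. A second domain, from 77762382 to 77790833, had 16.4 kb in 5 AKBA peaks and 11.1 kb in 9 DMSO peaks.

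Other megabases of chromosome 17 fixed by their genes were marked to very different degrees. The window from 35 to 36 Mb holds LHX1, a LIM homeobox factor of kidney and head development. It had 11 AKBA and 11 DMSO peaks that covered 25.9 and 17.1 kb, of which a single peak made up 12286 bp with AKBA and 9379 bp with DMSO. The window from 59 to 60 Mb, with the T-box factor genes TBX2 and TBX4, had 5 AKBA and 3 DMSO peaks and 10.5 and 6.71 kb. From 70 to 71 Mb, where SOX9 lies, there were 2 AKBA and 2 DMSO peaks with 2.70 and 1.13 kb. The 2 Mb from 38 to 40 Mb hold the type I keratin genes with KRT14 of basal keratinocytes. They had 11 AKBA and 5 DMSO peaks with 7.92 and 2.81 kb. All 11 AKBA peaks and 4 of the 5 DMSO peaks were centred between 38 and 39 Mb. Between 39 and 40 Mb there was no AKBA peak and 1 DMSO peak of 0.675 kb. In the 2 Mb, 1 peak of each list overlapped the other, where the shares over all chromosomes were 32.2% and 54.5%. From 7 to 9 Mb, with the epidermal lipoxygenase genes ALOX12B and ALOXE3 of the skin barrier, there were 17 AKBA and 14 DMSO peaks with 28.02 and 18.65 kb. The best-scoring DMSO peak of the chromosome, with a score of 7.40, was in that stretch from 8925179 to 8926895, wholly inside an AKBA peak of 4291 bp.

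Chromosome 19 was most marked in 2 places of the long arm. The most covered window, from 30 to 31 Mb, held 37 AKBA peaks over 43.5 kb and 20 DMSO peaks over 11.9 kb. The ratio of bases, 3.66, was the highest of the 9 windows named as most covered on the 3 chromosomes. From 30 to 32 Mb lie ZNF536 and TSHZ3, zinc-finger factors of neural and of smooth muscle development that stand outside the tandem clusters. Of the 54 AKBA and 35 DMSO peaks there, 11 and 15 overlapped the other list, where the shares over all chromosomes were 32.2% and 54.5%. The 3 Mb from 30 to 33 Mb, chosen after the values were seen, held 21.8% of the AKBA and 16.6% of the DMSO peaks of chromosome 19. The other place, from 51 to 52 Mb, had 31 AKBA and 21 DMSO peaks with 36.9 and 17.3 kb. The third most covered window, from 1 to 2 Mb, held 15 AKBA and 9 DMSO peaks over 23.2 and 16.5 kb. The megabase of CEBPA from 33 to 34 Mb, a factor of fat, blood and epidermal differentiation, had 4 AKBA and 3 DMSO peaks.

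The densest window of chromosome 22 was also its most covered. From 48 to 49 Mb there were 33 AKBA peaks over 32.3 kb and 20 DMSO peaks over 16.3 kb, which is 12.9% of the AKBA and 12.4% of the DMSO peaks of the chromosome. The window from 44 to 45 Mb, named after its values were seen, came next in peak number with 22 AKBA and 12 DMSO peaks over 16.2 and 6.09 kb. The next in bases covered by both lists, from 50 to 51 Mb and from 25 to 26 Mb, had 10 AKBA and 13 DMSO peaks over 12.8 and 11.03 kb, and 12 AKBA and 9 DMSO peaks over 15.9 and 7.86 kb. The megabase from 19 to 20 Mb with TBX1, a T-box factor of pharyngeal and heart development, held 7 AKBA and 9 DMSO peaks with 9.24 and 5.97 kb. Megabases of 3 other developmental genes had 0 or 1 AKBA and 1 or 2 DMSO peaks, where the median window of the chromosome held 6 and 3. SOX10, a neural crest and melanocyte factor, lies between 38 and 39 Mb with 1 AKBA and 1 DMSO peak that overlapped each other. MN1, a transcriptional coactivator gene at 28 to 29 Mb, had 0 AKBA and 2 DMSO peaks, and WNT7B, a WNT ligand gene at 46 to 47 Mb, had 0 and 2. The immunoglobulin lambda genes at 22 to 23 Mb, used by B cells, lay in a window with 8 AKBA and 3 DMSO peaks.

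Marking was spread over a larger share of windows on each of these chromosomes than on the other 20 pooled. Of the 177 windows of 1 Mb on the 3 chromosomes, 22 (12.4%) had no covered base in either list, against 28.9% of windows on the other 20 chromosomes. Empty windows numbered 8 of 82 on chromosome 17, 12 of 60 on chromosome 19 and 2 of 35 on chromosome 22. The median window held 6 AKBA and 4 DMSO peaks on chromosome 17, 3 and 3 on chromosome 19, and 6 and 3 on chromosome 22, against 2 and 1 elsewhere. The 9 fullest windows of chromosome 17 carried 41.9% of its AKBA peaks and, chosen anew for that list, 44.6% of its DMSO peaks. The 6 fullest of chromosome 19 carried 40.1% and 37.7%, and the 4 fullest of chromosome 22 carried 34.1% and 33.5%. The 277 fullest of the 2767 windows on the other 20 chromosomes carried more, 49.5% of AKBA and 50.3% of DMSO peaks. AKBA peaks covered more bases in 68 of 74 occupied windows on chromosome 17 (91.9%), 39 of 48 on chromosome 19 (81.25%) and 29 of 33 on chromosome 22 (87.9%), against 86.1% over all chromosomes. Their intervals, 83.2 to 97.0%, 67.4 to 91.1% and 71.8 to 96.6%, each include that background. In the opposite direction the greatest differences were small. Between 20 and 21 Mb on chromosome 17 AKBA peaks covered 1.27 kb against 3.07 kb for DMSO peaks, between 36 and 37 Mb on chromosome 19 there were 1.69 and 2.25 kb, and between 18 and 19 Mb on chromosome 22 there were 0.737 and 1.55 kb.

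The zinc-finger gene clusters of chromosome 19 were nearly free of peaks in both lists. The 12 windows of 1 Mb placed on clusters held 12 of the 339 AKBA peaks of the chromosome (3.54%) and 9 of its 247 DMSO peaks (3.64%). That is 1.00 AKBA and 0.750 DMSO peaks per Mb, against 6.81 AKBA and 4.96 DMSO peaks per Mb in the other 48 windows. The ratio was 0.147 with AKBA (interval 0.0751 to 0.260) and 0.151 with DMSO (0.0683 to 0.292). With equal list lengths it was 0.0731 with AKBA (0.0197 to 0.190), and the DMSO value stays the same because that list is not shortened. In covered length the cluster windows had 0.802 kb per Mb under AKBA peaks and 0.575 kb per Mb under DMSO peaks, the other windows 7.60 and 3.66 kb. No peak was centred in 8 of the 12 cluster windows in the AKBA list, nor in 8 of the 12 in the DMSO list, and the fullest held 5 AKBA and 3 DMSO peaks. Among the other 48 windows, 7 had no AKBA peak and 6 no DMSO peak, and the medians were 4.5 AKBA and 3.5 DMSO peaks.

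The clusters differed in detail. From 20 to 24 Mb, the 19p12 cluster beside the centromere, there was no peak of either list. The cluster window from 37 to 38 Mb also had no peak of either list. From 44 to 45 Mb there was 1 DMSO peak of 433 bp and no AKBA peak, and from 9 to 10 Mb 1 AKBA peak at its list's narrowest width and no DMSO peak. The 2 Mb from 57 to 59 Mb had 1 AKBA and 2 DMSO peaks. The 2 Mb from 52 to 54 Mb had 5 AKBA and 3 DMSO peaks, all centred in the first megabase. None of them overlapped the other list, where the shares over all chromosomes were 32.2% of AKBA and 54.5% of DMSO peaks. So few peaks cannot show a difference from those shares. The best-scoring DMSO peak of chromosome 19 was 1 of these 3, from 52032697 to 52032906 with a width of 210 bp and a score of 5.94. All peaks of this window lay near its start, before a peak-free stretch that began at 52277969. Whether they lie inside the cluster itself was not checked. The most marked cluster window, from 12 to 13 Mb, had 5 AKBA and 3 DMSO peaks with 6.11 and 4.41 kb. Without the 19p12 windows, a choice made after seeing the data, the ratio to the other windows was 0.220 with AKBA and 0.227 with DMSO. The input libraries were not analysed here.

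**Figure D2:**
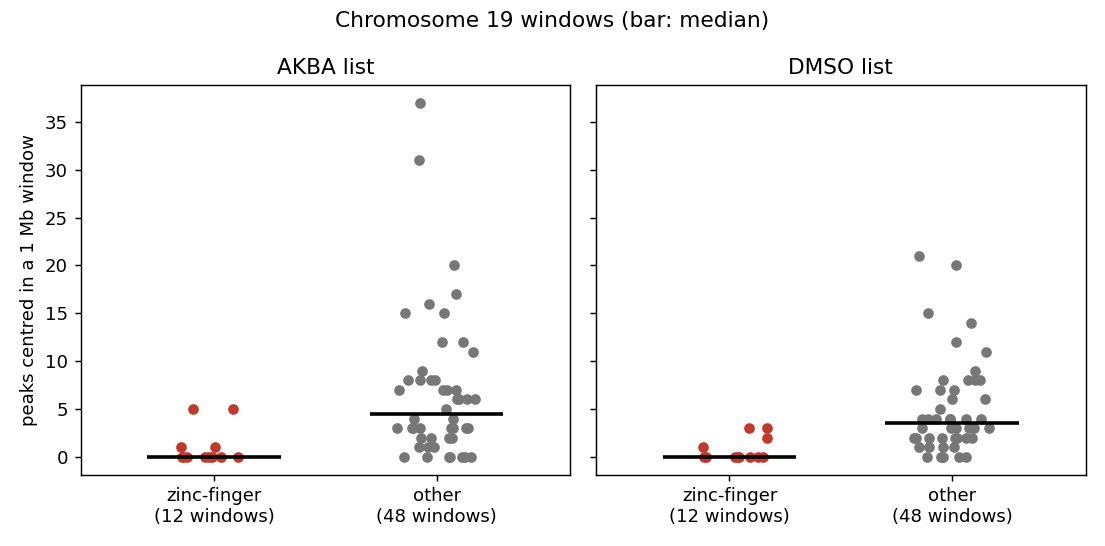
Peaks centred in each 1 Mb window of chromosome 19 (vertical axis, count) for the 12 windows placed on zinc-finger gene clusters and the 48 other windows, in the AKBA list (left) and the DMSO list (right), with bars at the medians. The cluster windows have a median of 0 in both lists and reach 5 AKBA and 3 DMSO peaks. The other windows have medians of 4.5 AKBA and 3.5 DMSO peaks and reach 37 and 21.

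Long stretches without a peak of either list took up 47.5% of the span of chromosome 17, 52.2% of chromosome 19 and 48.7% of chromosome 22, counting stretches of at least 500 kb. On the other 20 chromosomes pooled such stretches took up 70.2%, with 41.4% on chromosome 20, 48.8% on chromosome 15 and 91.5% on chromosome X. The pool includes single gaps of great length, up to 23389.5 kb in the AKBA list on chromosome 1. There were 43 on chromosome 17, 22 on chromosome 19 and 16 on chromosome 22, of which 11, 10 and 7 reached 1 Mb. The longest on chromosome 19 ran from 19374793 to 27732004, or 8.36 Mb, across the 19p12 cluster and, by general knowledge, the centromere. The next were 2108 kb from 52277969 to 54385735, of which 81.7% lay in cluster windows, and 2024 kb from 4280720 to 6304564, which touched none. Of the 22 stretches on chromosome 19, 9 reached into cluster windows, and together they took up 89.3% of the 12 Mb of those windows. The other 13 stretches lay wholly outside them. By length, 10.7 of the 30.7 Mb of all 22 stretches lay inside the 12 cluster windows and 19.95 Mb outside, where the chromosome has 48 windows.

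On chromosome 17 the longest stretch, from 22261707 to 26026426, measured 3765 kb and spans the centromere by general knowledge. It was followed by 1586 kb from 66953555 to 68539801 and 1461 kb from 51869132 to 53330140. In the DMSO list alone both of these were parts of longer stretches. DMSO peaks were missing over 3617 kb from 66598670 to 70216085, where the AKBA list had 9 peaks, and over 3105 kb from 50237654 to 53342476, where it had 5. On chromosome 22 the longest stretches ran over 1973 kb from 40333375 to 42306766, 1603 kb from 37246973 to 38850400 and 1573 kb from 34320827 to 35894212. The first of these ended at the same peak borders in the AKBA list alone. The longest DMSO stretch of chromosome 22 was 2628 kb from 34318600 to 36946665 and held 5 AKBA peaks. In the other direction, the longest AKBA stretch of chromosome 17, 4572 kb from 21454818 to 26026426, held 3 DMSO peaks, and that of chromosome 19, 9311 kb from 19374050 to 28685129, held 4.

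Neighbouring peaks lay closest on chromosome 17. The median gap there was 17.9 kb in the AKBA list and 28.9 kb in the DMSO list. It was 29.7 and 42.2 kb on chromosome 19, and 26.6 and 52.0 kb on chromosome 22, against 27.8 and 41.0 kb on the other 20 chromosomes. Chromosomes 19 and 22 were thus denser than the rest without a shorter median gap in either list, apart from 26.6 kb on chromosome 22 with AKBA. The mean gap was 115 kb with AKBA and 163 kb with DMSO on chromosome 17, 173 and 238 kb on chromosome 19, and 133 and 212 kb on chromosome 22. Elsewhere it was 231 and 344 kb, so on chromosomes 19 and 22 the mean gap differed from the rest more than the median did. Gaps over 100 kb made up 23.2% of AKBA and 28.7% of DMSO gaps on chromosome 17, 29.6% and 38.2% on chromosome 19, 22.8% and 36.9% on chromosome 22, and 29.98% and 38.1% elsewhere.

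Peaks stood in groups on all 3 chromosomes. The mean gap was 6.41 times the median in the AKBA list and 5.65 times in the DMSO list on chromosome 17. On chromosome 19 it was 5.82 and 5.63 times, and on chromosome 22 it was 5.004 and 4.08 times, against 8.33 and 8.39 times on the other 20 chromosomes. Gaps of up to 5 kb were 28.5% of AKBA and 27.3% of DMSO gaps on chromosome 17, 26.0% and 28.9% on chromosome 19, and 23.6% and 20% on chromosome 22. On the other 20 chromosomes they were 24.1% and 25.9%. Chromosome 22 thus had the lowest share of close neighbours of the 3 in both lists, with 60 AKBA and 32 DMSO gaps of that size. The 25% shortest of its DMSO gaps ended at 10.3 kb, against 2.72 kb on chromosome 19 and 4.01 kb on chromosome 17.

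**Figure D3:**
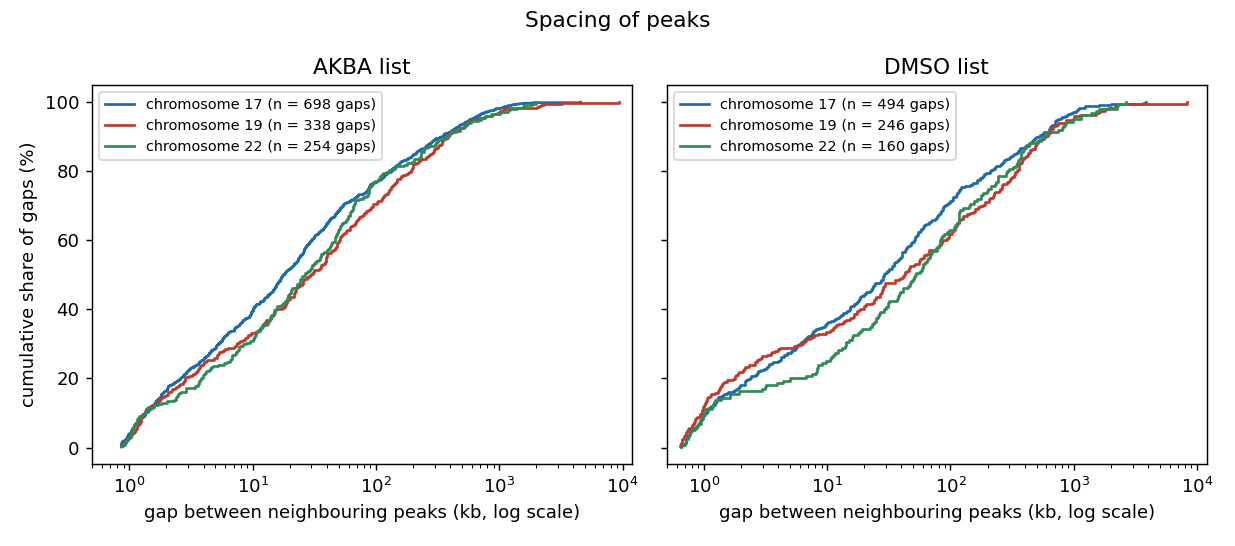
Cumulative share of gaps between neighbouring peaks (vertical axis, %) by gap length (horizontal axis, kb on a log scale) on chromosomes 17, 19 and 22 in the AKBA list (left) and the DMSO list (right). The curve of chromosome 17 lies to the left over most of its course, with medians of 17.9 kb in the AKBA list and 28.9 kb in the DMSO list.

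Domains numbered 593 on chromosome 17, 298 on chromosome 19 and 239 on chromosome 22. Those of at least 10 kb were 32, 12 and 3. Per Mb of span these were 0.395 on chromosome 17, 0.204 on chromosome 19 and 0.0880 on chromosome 22, against 0.149 on the other 20 chromosomes. Chromosome 22 was therefore dense in peaks but had fewer domains of that length per Mb than the other 20 chromosomes. Its value rests on 3 domains, and no interval was computed for it. Of the 46 such domains with peaks of both lists, 43 (93.5%) had more AKBA bases, against 93.9% over all chromosomes. The exceptions were 2 on chromosome 17 and 1 on chromosome 22. The exception on chromosome 22 was its widest domain, from 20779367 to 20792543, with 4.10 kb in 4 AKBA peaks and 4.82 kb in 3 DMSO peaks. On chromosome 19 the widest domain ran from 49922145 to 49945652 and had 10.1 kb in 6 AKBA peaks and 5.98 kb in 5 DMSO peaks. The third widest there, from 30713598 to 30729394, was 86.5% covered by AKBA peaks and 33.2% by DMSO peaks.

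In the AKBA list the 3 chromosomes had like median widths and differed in the share of wide peaks, and in the DMSO list they differed in the share of peaks at the narrowest width. On chromosome 17 the median width was 793 bp with AKBA and 625 bp with DMSO. It was 771 and 508 bp on chromosome 19 and 787 and 541 bp on chromosome 22. On the other 20 chromosomes it was 737 and 550 bp. The DMSO median of chromosome 17 was the highest of the 23 chromosomes, and that of chromosome 19 was number 19. The 10% widest began at 2721 bp with AKBA and 2064 bp with DMSO on chromosome 17, at 2397 and 1470 bp on chromosome 19, and at 1795 and 1584 bp on chromosome 22. Peaks of at least 2 kb were 122 (17.5%, interval 14.7 to 20.5%) of AKBA and 54 (10.9%, 8.30 to 14.0%) of DMSO peaks on chromosome 17. On chromosome 19 they were 42 (12.4%, 9.08 to 16.4%) and 16 (6.48%, 3.75 to 10.3%), and on chromosome 22 they were 19 (7.45%, 4.55 to 11.4%) and 11 (6.83%, 3.46 to 11.9%). The AKBA share of chromosome 22 was the lowest of the 23 chromosomes, and its interval lies below that of chromosome 17. In the DMSO list the intervals of all 3 overlap. Peaks of at least 5 kb numbered 14, 6 and 1 in the AKBA list and 6, 2 and 0 in the DMSO list on chromosomes 17, 19 and 22.

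At the other end, 33 of the 247 DMSO peaks of chromosome 19 (13.36%, interval 9.38 to 18.2%) had the narrowest width of their list, 160 bp, against 8.58% of DMSO peaks on the other 20 chromosomes. In the AKBA list 20 of its 339 peaks (5.90%, 3.64 to 8.96%) had that list's narrowest width of 214 bp, against 7.82% elsewhere. The DMSO share on chromosome 22 was 4.35% (1.77 to 8.75%), and on chromosome 17 it was 7.68% (5.49 to 10.4%). Of the 33 narrowest DMSO peaks of chromosome 19, 12 overlapped an AKBA peak, against 161 of 763 over all chromosomes.

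**Figure D4:**
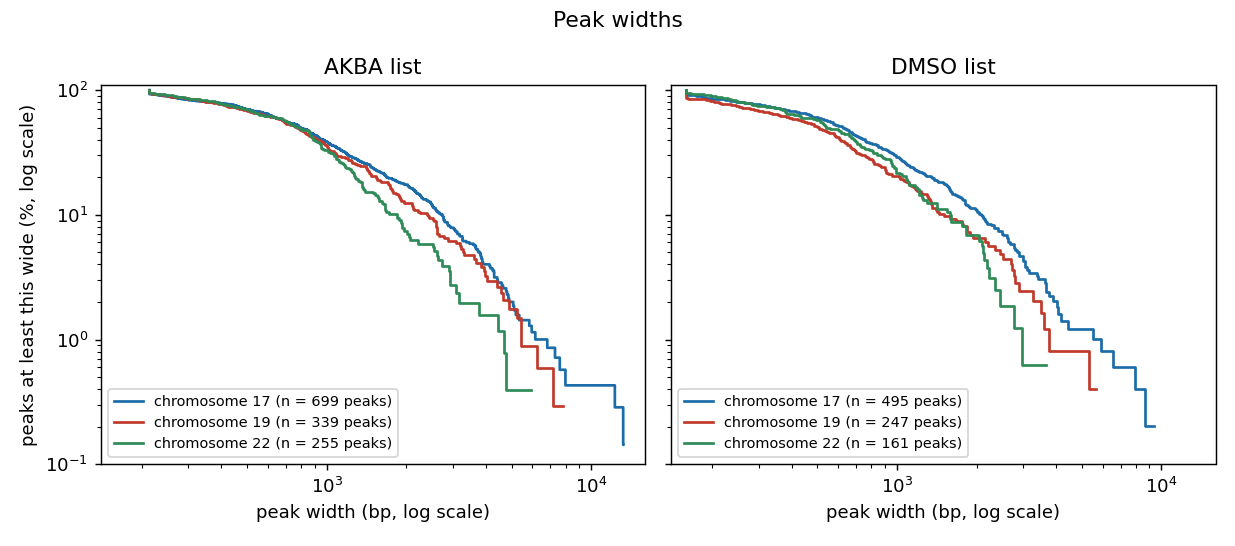
Share of peaks at least as wide as a given width (vertical axis, %, log scale) against width (horizontal axis, bp, log scale) on chromosomes 17, 19 and 22 in the AKBA list (left) and the DMSO list (right). From about the median on, chromosome 17 lies highest in both lists, and at 2 kb in the AKBA list the shares are 17.5% on chromosome 17, 12.4% on chromosome 19 and 7.45% on chromosome 22.

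The widest peaks of chromosome 17 overlapped the other list. Over all chromosomes, 89% of AKBA and 99.3% of DMSO peaks of at least 2 kb did so. The widest AKBA peaks were picked by AKBA width, so that they exceed their DMSO partners follows largely from the choice. The widest DMSO peaks, picked by DMSO width, also met wider AKBA peaks, though only of 7992 against 7911 bp for the third. The widest AKBA peak, from 37751485 to 37764699, was 13215 bp wide, with 91.4% of its length under 2 DMSO peaks, the wider of 8670 bp. The second, from 46702148 to 46715357 in the HOXB megabase, was 13210 bp wide, with 31.9% under 5 DMSO peaks. The third, from 35288481 to 35300766 in the LHX1 megabase, was 12286 bp wide, with 84.3% under 2 DMSO peaks. The wider of these, of 9379 bp, was the widest DMSO peak of the chromosome. The third widest DMSO peak, from 14200112 to 14208022, measured 7911 bp and shared 95.7% of its length with an AKBA peak of 7992 bp. DMSO peaks stood as little as 645 bp apart on these chromosomes and AKBA peaks no less than 859 bp, which bears on how many DMSO peaks can lie under 1 AKBA peak.

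The first and second widest AKBA peaks of chromosome 19 were in its densest window. The first, from 30713598 to 30721454, measured 7857 bp, of which 62.0% was covered by 3 DMSO peaks. The second, from 30014595 to 30021797, measured 7203 bp, of which 26.0% was covered by 3 DMSO peaks. The third, from 1466768 to 1473017, was also the best-scoring AKBA peak of the chromosome with 7.32. It measured 6250 bp over the widest DMSO peak, of 5660 bp. On chromosome 22 the widest AKBA peak, from 25813816 to 25819729, measured 5914 bp and contained a DMSO peak of 2181 bp. The widest DMSO peak there, from 50062262 to 50065920, measured 3659 bp and shared 93.9% of its length with an AKBA peak of 4463 bp. The best scores were 8.14 with AKBA at 27052983 to 27054278 and 6.11 with DMSO at 34317874 to 34318599, and both peaks overlapped the other list.

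Where 1 AKBA peak met 1 DMSO peak and no other, the AKBA peak was wider in 157 of 211 pairs on chromosome 17 (74.4%), 73 of 100 on chromosome 19 (73.0%) and 48 of 64 on chromosome 22 (75%), against 73.1% over all chromosomes. The median difference, AKBA minus DMSO, was 356 bp on chromosome 17, 444 bp on chromosome 19 and 402.5 bp on chromosome 22, against 405 bp on the other 20 chromosomes. The paired medians were 1431 bp with AKBA and 925 bp with DMSO on chromosome 17, 1189 and 648 bp on chromosome 19, and 1272.5 and 728.5 bp on chromosome 22. The narrowest width of each list, 214 bp with AKBA and 160 bp with DMSO, went the same way, and its part in the difference was not tested.

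Chromosome 17 had the highest share of peaks common to both lists, from either side. Of AKBA peaks, 260 on chromosome 17 (37.2%, interval 33.6 to 40.9%), 118 on chromosome 19 (34.8%, 29.7 to 40.1%) and 77 on chromosome 22 (30.2%, 24.6 to 36.2%) overlapped a DMSO peak by at least 1 bp, against 32.2% over all chromosomes. Of DMSO peaks, 297 on chromosome 17 (60%, 55.5 to 64.3%), 136 on chromosome 19 (55.1%, 48.6 to 61.4%) and 85 on chromosome 22 (52.8%, 44.8 to 60.7%) overlapped an AKBA peak, against 54.5% over all chromosomes. The share of chromosome 17 was number 3 of the 23 chromosomes in both lists, and its intervals stay above both background values. The intervals of chromosomes 19 and 22 include them and overlap each other, and with a score of at least 3 the share of chromosome 22 was the higher, at 36.8% against 36.4% of AKBA and 57.1% against 55.6% of DMSO peaks. Counted in bases, 36.9% of AKBA and 67.35% of DMSO sequence was common on chromosome 17, 29.9% and 61.3% on chromosome 19, and 23.8% and 48.4% on chromosome 22, against 33.2% and 64.2% over all chromosomes.

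Width went with sharing on each chromosome. Each whole list was divided by width into 4 classes of 25%. In the widest AKBA class, from 1291 bp, 78.6% of the peaks on chromosome 17, 73.3% on chromosome 19 and 76.0% on chromosome 22 were shared, against 7.80%, 11.1% and 10.2% in the narrowest class. In the DMSO list the widest class, from 1012 bp, was shared in 94.4%, 92.2% and 85.7% of cases, and the narrowest in 26.2%, 38.6% and 30.3%. On the other 20 chromosomes the widest class was shared in 75.7% of AKBA and 93.4% of DMSO cases, and the narrowest in 8.52% and 27.5%. Within a class the intervals of the 3 chromosomes overlapped in both lists. Of AKBA peaks of at least 2 kb, 108 of 122 on chromosome 17, 36 of 42 on chromosome 19 and 19 of 19 on chromosome 22 overlapped a DMSO peak, against 89% over all chromosomes. Of DMSO peaks of that width, 53 of 54, 16 of 16 and 11 of 11 overlapped an AKBA peak, against 99.3% over all chromosomes.

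**Figure D5:**
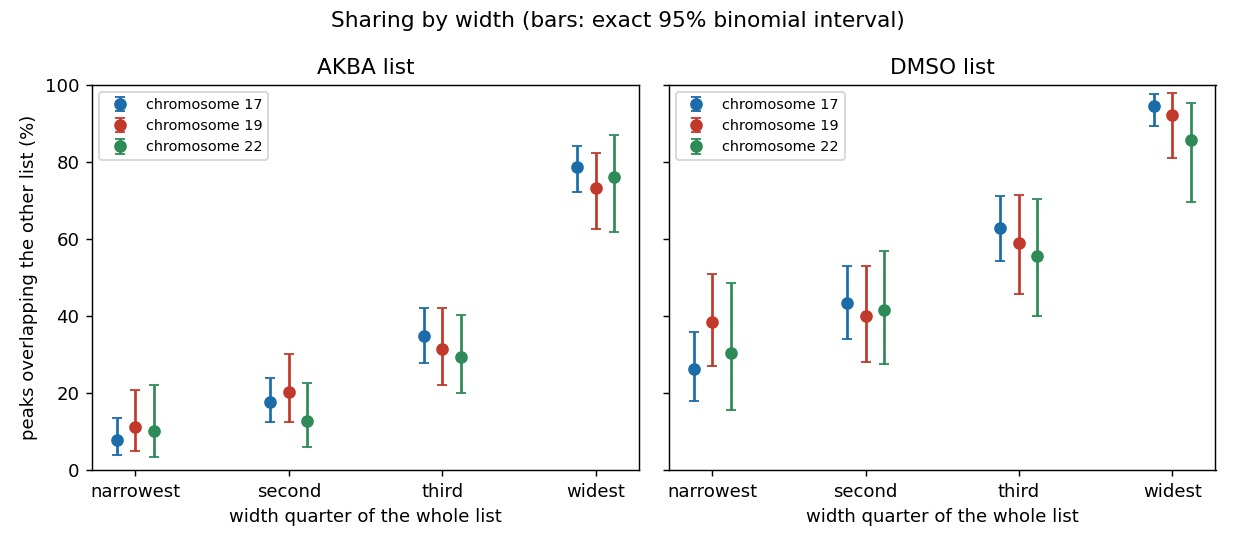
Share of peaks that overlap the other list (vertical axis, %) in 4 width classes of the whole AKBA list (left) and the whole DMSO list (right), for chromosomes 17, 19 and 22, with exact 95% binomial intervals as bars. The share climbs with width on all 3 chromosomes, up to 94.4% in the widest DMSO class on chromosome 17.

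On chromosome 19 the shares of overlapping peaks were higher on the short arm, with no interval computed for either arm. Before the longest peak-free stretch, on the short arm, 45.5% of 101 AKBA and 72.0% of 75 DMSO peaks were shared. Beyond it 30.3% of 238 AKBA and 47.7% of 172 DMSO peaks were shared. The part beyond it includes the 30 to 33 Mb block, where 12 of 74 AKBA and 16 of 41 DMSO peaks were shared. How far this block lowers the long-arm shares was not tested. The DMSO peaks were also wider on the short-arm side, with a median of 634 bp against 483.5 bp beyond it, and the AKBA peaks measured 829 and 736.5 bp. On chromosome 17 the same split gave 33.5% and 38.4% for AKBA and 58.4% and 60.4% for DMSO peaks. Widths moved with the difference between the arms of chromosome 19, and their part in it was not tested.

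Peaks in 1 list alone were 439 AKBA and 198 DMSO peaks on chromosome 17, 221 and 111 on chromosome 19, and 178 and 76 on chromosome 22. Within 5 kb of a peak of the other list lay 33.5% of the unshared AKBA and 44.4% of the unshared DMSO peaks on chromosome 17, 30.8% and 51.4% on chromosome 19, and 24.7% and 38.2% on chromosome 22. Over all chromosomes these shares were 27.3% with AKBA and 43.8% with DMSO. Over 100 kb from the other list were 59 AKBA and 16 DMSO peaks on chromosome 17, 40 and 19 on chromosome 19, and 27 and 11 on chromosome 22. Over all chromosomes these were 1842 of 8925 unshared AKBA peaks and 498 of 4041 unshared DMSO peaks. The widest AKBA peak without a DMSO overlap, from 30723976 to 30729394 on chromosome 19, measured 5419 bp and lay 2152 bp from the nearest DMSO peak. On chromosome 17 the widest was the peak from 77530723 to 77534629, of 3907 bp, in the most covered window of that chromosome. Another of 3059 bp, from 15685925 to 15688983, had no DMSO peak within 367 kb. On chromosome 22 no AKBA peak without a DMSO overlap exceeded 1661 bp.

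Among DMSO peaks without an AKBA overlap the widest was on chromosome 17 from 72518686 to 72520838, with 2153 bp and a distance of 36.4 kb to the AKBA list; its score was 2.58. The next on that chromosome lay in the HOXB megabase, from 46639864 to 46641366, with 1503 bp and 12.1 kb to the nearest AKBA peak. On chromosome 19 the widest, from 29986933 to 29988084, measured 1152 bp and was 228 bp from an AKBA peak. On chromosome 22 the peak from 19016573 to 19018156 measured 1584 bp and was 118 kb from an AKBA peak. The peak from 43116195 to 43117609, of 1415 bp, was 259 kb away. The median score of unshared peaks was below that of shared peaks within each list on all 3 chromosomes. On chromosome 17 the unshared AKBA peaks had a median score of 2.79 and the shared ones 4.003, and the DMSO medians were 2.69 and 3.24. On chromosome 19 the AKBA medians were 2.73 for unshared and 3.57 for shared peaks, and the DMSO medians were 2.77 and 3.22. On chromosome 22 they were 2.65 and 3.56 with AKBA, and 2.60 and 3.28 with DMSO.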

How the data were processed

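HaCaT cells received AKBA or DMSO for 12 hours and were profiled by H3K27me3 ChIP-seq on sonicated, formaldehyde-fixed chromatin, per the labels' protocols. Per the submitters' processing notes the build was hg19 and the tools named are MACS2, BWA and STAR. Their versions, the threshold and the use of the input were not given in the sources used. The authors deposited 1 peak list per library without a header, with a score per peak whose scale is not stated. The score was used within a list, apart from 1 setting with a common minimum of 3. The depth is unknown.

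Peaks, widths, gaps, windows of 1 Mb and overlaps of at least 1 bp were computed with numpy 2.4.6, scipy 1.17.1 and pandas 2.3.3 under Python 3.11.15, and drawn with matplotlib 3.10.9. Overlap counts equalled those of bedtools 2.31.1. On simulated data, all 903 moved copies of DMSO peaks were called correctly. Window counts take peaks by their centre, and window bases are split at the borders. Gene numbers per chromosome come from RefSeq (GRCh38.p14), whose coordinates were not used; the 23 symbols checked lay on the named chromosome. No sequence is shown, since a genome of build hg19 was not used here.

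Regions named are, on each chromosome, the widest, best-scoring and widest unshared peaks, the longest peak-free stretches, the most covered windows, those with the greatest difference in each direction, the widest domains, and windows fixed by gene, of which 1 gene label is not reported here. Members, windows and alternatives were chosen with earlier results of these data known. Alternatives were a minimum score or width, equal list lengths, no narrowest peaks, merging, other overlaps, windows and spans.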

Additional observations from a re-analysis of the deposited data

How the results depend on the processing

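Taking the 8890 highest-scoring peaks of each list fixes the ratio of AKBA to DMSO peak numbers over all chromosomes at 1. This setting gave ratios of 0.976 on the 3 chromosomes together, 1.01 on chromosome 17, 0.903 on chromosome 19 and 0.969 on chromosome 22. It gave a base ratio of 1.55, 78.7% of windows with more AKBA bases, 45.9% of AKBA and 51.9% of DMSO peaks shared, and an AKBA ratio of 0.0731 for zinc-finger windows. A score of at least 3 gave shares of 39.4% of AKBA and 63.6% of DMSO peaks, and relative AKBA densities of 2.20 on chromosome 17 and 1.46 on chromosome 22. A minimum width of 1 kb set the peak number ratio to 2.07, the base ratio to 2.24 and the shared DMSO peaks to 80%, with relative densities of 2.27 with AKBA and 2.43 with DMSO on chromosome 17 and, with DMSO, of 1.19 on chromosome 19 and 1.40 on chromosome 22, whose intervals of 0.880 to 1.57 and 0.975 to 1.96 include 1. Merging peaks of a list within 5 kb gave 40.2% of AKBA peaks shared. Reciprocal overlap of 50% gave 15.1% of AKBA and 21.6% of DMSO peaks, and counting peaks within 1 kb gave 41.2% and 66.1%. Windows of 2 Mb gave 95.3% with more AKBA bases. The cause of these shifts was not tested, except that equal list lengths shorten only the AKBA list. Merging was not applied to peak-free stretches. The other 69 values of the main results moved by less than their counting error, or by under 1.5 times for counts of stretches. No paired analysis was possible because each condition has 1 library. Unknown depth limits every comparison.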
